A study of Mus musculus with 7 samples.

Results

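The Runx1, Runx2, Runx3 and Cbfb loci were examined in 7 ATAC-seq libraries, a method that maps open chromatin by letting a transposase cut wherever DNA is accessible. Peaks belonged to a locus when their midpoint lay inside the gene body on mm10, or within 100 kb of it with that gene as the nearest of 21887 protein-coding genes. Overlapping peaks from all lists were joined into 344401 regions, of which 308 belonged to the 4 loci, 136 to Runx1, 86 to Runx2, 75 to Runx3 and 11 to Cbfb. They came from 1049 of the 975394 peaks summed over the 7 lists. The loci were chosen by values of these same peak lists, in particular the number of Runx1 regions called in RANKL+I-BET and not in RANKL, so the counts below are a description and carry no test.

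The cells were RAW264.7, a mouse monocyte-macrophage line that RANKL, the cytokine that starts osteoclast development, can drive toward bone-resorbing osteoclasts. RANKL+I-BET cells (2 libraries) received RANKL at 50 ng/ml and the BET bromodomain inhibitor I-BET at 500 nM, RANKL cells (2 libraries) RANKL at 50 ng/ml, and I-BET cells (1 library, replicate 2) I-BET at 500 nM, each for 4 h. Untreated cells (2 libraries) received neither, and all groups share this 1 cell line. Each library was made from 50000 cells, and it is not stated whether 2 replicates came from separate cultures. The source field of the labels reads bone marrow while the cell line field names RAW264.7, and an end of all 10 macrophage marker genes, Spi1 and Csf1r among them, was within 1 kb of a peak in all 7 libraries. In all 7 libraries this also held for 5 of 6 osteoclast, 2 of 6 B lymphocyte, 3 of 6 T lymphocyte and 1 of 6 fibroblast and osteoblast genes. In single libraries the counts were 5 or 6 osteoclast, 3 to 5 B lymphocyte, 3 or 4 T lymphocyte and 2 to 4 fibroblast and osteoblast genes. The same share over all genes was not computed, and these counts do not settle which field of the labels is right.

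Runx proteins are the DNA-binding alpha subunits of core binding factor, and Cbfb encodes the beta subunit, which does not touch DNA itself but strengthens the binding of its Runx partner. Runx1 is required for blood stem cells and shapes myeloid gene expression, Runx2 is the master regulator of osteoblasts and of maturing cartilage, and Runx3 is best known in T lymphocytes and in sensory neurons. Each Runx gene has a distal and a proximal promoter, which start transcripts that encode proteins with different amino termini. Runx1 lies at chr16:92601466-92826074 on the minus strand, Runx2 at chr17:44495987-44814797 on the minus strand, Runx3 at chr4:135120645-135177990 on the plus strand and Cbfb at chr8:105170674-105217989 on the plus strand.

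The promoter windows, from 250 bases before to 50 after a start site, came from RefSeq on GRCm38.p6. The table matched all 4 genes with 6 windows, both promoters for Runx1 and Runx3, the distal promoter for Runx2 and 1 promoter for Cbfb. The start site of the Runx2 window, chr17:44814627, lies inside the gene body, whose upstream end is chr17:44814797. Distances from the Runx2 distal start are counted from the start site of the window. The distal windows are shown first because they share a stretch of bases although their peaks differed, and capitals mark the Runx hexamers TGTGGT and TGCGGT in either orientation.
Runx1 distal, chr16:92826025-92826324, minus strand: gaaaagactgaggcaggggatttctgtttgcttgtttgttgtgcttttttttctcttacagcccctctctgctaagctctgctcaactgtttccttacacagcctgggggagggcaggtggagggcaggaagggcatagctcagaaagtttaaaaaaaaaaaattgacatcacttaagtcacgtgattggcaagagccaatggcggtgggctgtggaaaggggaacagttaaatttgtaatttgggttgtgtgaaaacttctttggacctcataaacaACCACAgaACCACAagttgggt
Runx2 distal, chr17:44814578-44814877, minus strand: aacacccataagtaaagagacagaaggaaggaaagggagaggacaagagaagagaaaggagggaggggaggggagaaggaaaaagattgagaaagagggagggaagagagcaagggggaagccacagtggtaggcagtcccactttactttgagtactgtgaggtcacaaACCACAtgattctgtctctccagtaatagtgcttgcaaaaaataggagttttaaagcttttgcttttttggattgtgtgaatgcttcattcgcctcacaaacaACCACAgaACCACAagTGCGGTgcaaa
Runx3 distal, chr4:135120395-135120694, plus strand: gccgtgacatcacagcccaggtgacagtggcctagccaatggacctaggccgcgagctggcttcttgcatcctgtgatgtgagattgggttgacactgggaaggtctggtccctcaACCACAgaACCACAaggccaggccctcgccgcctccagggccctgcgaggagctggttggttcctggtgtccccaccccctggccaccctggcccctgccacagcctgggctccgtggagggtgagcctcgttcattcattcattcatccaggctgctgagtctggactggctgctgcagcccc

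All 3 distal windows held the 18 bases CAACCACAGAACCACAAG, which contain the Runx hexamer 2 times on the opposite strand. The stretch was picked as the longest that these 3 windows share, so its presence in all 3 was fixed in advance. This stretch began 26 bp past the start site at Runx1 and 21 bp past it at Runx2, but 136 bp before it at Runx3. Among the 32851 promoter windows of the table it was found in 4, the other being that of Gm16225, a long noncoding RNA on the opposite strand whose window overlaps that of Runx3. TGTGGT was found in 16.8% of all windows and at least 2 times in 1.81%, against 2, 3 and 2 matches in the distal windows of Runx1, Runx2 and Runx3. In each of these windows 2 of the matches are those inside the shared stretch. TGCGGT, in 6.45% of all windows, had 1 match, in the Runx2 distal window. A match describes letters and does not show that a factor binds.

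The proximal windows of Runx1 and Runx3 are shown beside them for their base composition.
Runx1 proximal, chr16:92697280-92697579, minus strand: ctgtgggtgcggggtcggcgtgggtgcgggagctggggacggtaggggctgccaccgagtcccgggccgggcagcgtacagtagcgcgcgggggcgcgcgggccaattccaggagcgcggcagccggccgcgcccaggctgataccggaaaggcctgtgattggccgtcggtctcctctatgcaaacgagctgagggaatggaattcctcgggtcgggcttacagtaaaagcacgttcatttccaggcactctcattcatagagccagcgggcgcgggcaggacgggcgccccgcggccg
Runx3 proximal, chr4:135152295-135152594, plus strand: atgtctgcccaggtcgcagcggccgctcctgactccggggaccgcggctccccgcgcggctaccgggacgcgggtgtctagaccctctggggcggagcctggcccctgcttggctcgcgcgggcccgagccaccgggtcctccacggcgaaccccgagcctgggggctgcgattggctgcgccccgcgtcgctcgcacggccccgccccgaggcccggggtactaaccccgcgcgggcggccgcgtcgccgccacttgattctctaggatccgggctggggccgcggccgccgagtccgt

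The proximal windows had 69.0% G and C bases with 35 CpG pairs at Runx1 and 77.3% with 45 at Runx3, against 45.0% with 2 in the Runx1, 45.3% with 2 in the Runx2 and 63.7% with 8 in the Runx3 distal window. The Cbfb window had 69.7% with 30 CpG pairs, and the medians over all windows were 52.7% and 7. Neither proximal window nor that of Cbfb held TGTGGT or TGCGGT. The AP-1 letters TGANTCA, in 7.81% of all windows, matched 0 of the 6. The PU.1 letters GAGGAAGT, in 3.2%, matched once, 2 bp past the Cbfb start site, and the NF-kB pattern of 3 G, 5 free bases and 2 C, in 50.8%, matched in all but the Runx1 distal window. Motifs were searched on both strands, and overlapping matches were counted separately.

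One library stood apart. In untreated replicate 1, 42.9% of the regions called were called nowhere else, against 8.95% to 27.1% in the other 6 libraries, and peaks with a deposited -log10 q of 5 or more made up 25.3% of its list, against 36.8% to 74.0%. Read counts are not given, so depth is unknown; the background pileup implied by the folds of the lists was 13.8 in RANKL+I-BET replicate 2, 1.11 in I-BET replicate 2 and between these in the other 5. At the 4 loci untreated replicate 1 was the only library without a call at 5 Runx1, 6 Runx2, 4 Runx3 and 1 Cbfb regions. Counts of regions set against untreated cells are therefore also given without it, for RANKL+I-BET over the 4 loci together. So are the ratios to untreated cells at Runx1, and those of RANKL+I-BET at Runx3 and Cbfb. A call is yes or no per library, so taller or shorter peaks in a region that both groups share leave no trace in the counts.

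Both Runx1 promoters and the Cbfb promoter carried strong peaks in all 7 libraries, whereas the Runx2 and Runx3 promoters in the table carried peaks of lower rank in some libraries or none in any. Strength is given as the percentile of a peak's deposited -log10 p among the peaks of its own library; values from lists of different lengths do not show a change. For comparison, 41.5% to 46.6% of all promoter windows held a peak in a given library.

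**Figure D1:**
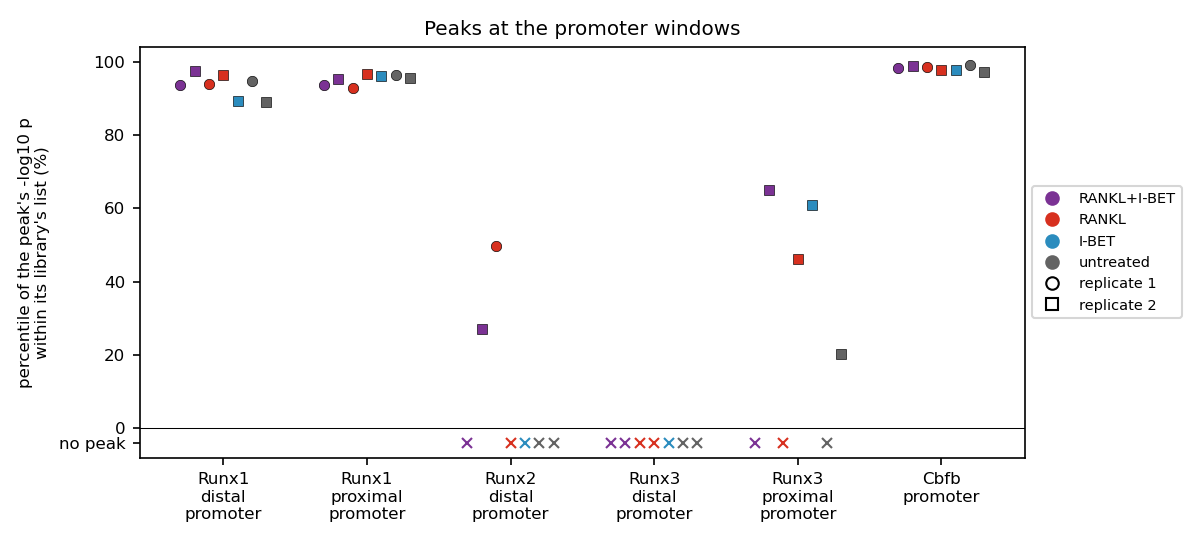
Percentile of the deposited -log10 p of the strongest peak overlapping each promoter window, within its own library's list; each point is 1 library, circles are replicate 1 and squares replicate 2, colours are the groups and crosses mark windows without a peak. All 7 libraries sit above 89 for both Runx1 promoters and the Cbfb promoter, while the Runx3 distal promoter has 7 crosses.

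At the Cbfb promoter the peak ranked at percentiles 98.3 and 98.8 in RANKL+I-BET replicates 1 and 2, 98.6 and 97.7 in RANKL, 97.8 in I-BET and 99.1 and 97.3 in untreated cells. Its summit lay 74 to 96 bp before the start site, and the groups overlapped. At the Runx1 proximal promoter the percentiles were 93.7 and 95.2 in RANKL+I-BET, 92.7 and 96.6 in RANKL, 96.1 in I-BET and 96.3 and 95.5 in untreated cells. This peak was 2654 to 3305 bp long in every library. Its summit lay 28 to 215 bp before the start site in 5 libraries, but 1330 bp before it in the second replicates of RANKL+I-BET and RANKL.

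At the Runx1 distal promoter the percentiles were 93.6 and 97.4 in RANKL+I-BET, 93.8 and 96.3 in RANKL, 89.2 in I-BET and 94.8 and 89.1 in untreated cells. The joined region there, chr16:92820483-92827233, was the longest of the 4 loci at 6751 bp. It held a second summit 2419 to 2445 bp past the distal start in all 7 libraries. In the second replicates of RANKL+I-BET and RANKL a single peak, of 6273 and 3275 bp, spanned both summits and had its own summit at the second, so the percentile there is that of the joint peak. In the other 5 libraries the promoter summit lay 31 to 38 bp before the start site in a peak of its own. The second peak ranked at percentiles 91.7 in RANKL+I-BET replicate 1, 96.2 in RANKL replicate 1, 97.0 in I-BET and 82.6 and 96.5 in untreated cells.

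The Runx2 distal window, which holds TGTGGT 3 times and TGCGGT once, overlapped a peak of RANKL+I-BET replicate 2 (percentile 27.2), a peak of RANKL replicate 1 (49.8) and none elsewhere. These peaks were 157 and 203 bp long, and their summits lay 266 and 271 bp before the start site of the window, outside the window. They lay nearer to the upstream end of the gene body, chr17:44814797, than to that start site. Their region lies within Supt3, a gene for a subunit of a transcription coactivator complex that overlaps the first 37680 bp of Runx2, and so belonged to Supt3 by the midpoint rule. The Runx3 distal window overlapped no peak in any library. The Runx3 proximal window overlapped peaks in RANKL+I-BET replicate 2 (65.0), RANKL replicate 2 (46.2), I-BET replicate 2 (61.0) and untreated replicate 2 (20.3), and none in the 3 libraries labelled replicate 1. The edge of the window decides part of this. The RANKL+I-BET peak reached only 4 bp into it, with its summit 1157 bp past the start site, and a second, weaker peak of that library also overlapped it (35.3). The untreated peak reached 29 bp into it with its summit 308 bp past the start, while the RANKL and I-BET summits lay 123 and 244 bp before it. Beside the window, RANKL replicate 1 had a call in the region chr4:135152566-135154085 and untreated replicate 1 in the region chr4:135151938-135152509. The 3 distal promoters share the 18-base stretch, yet of the 3 windows that hold it the Runx1 window alone had a peak in all 7 libraries.

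**Figure D2:**
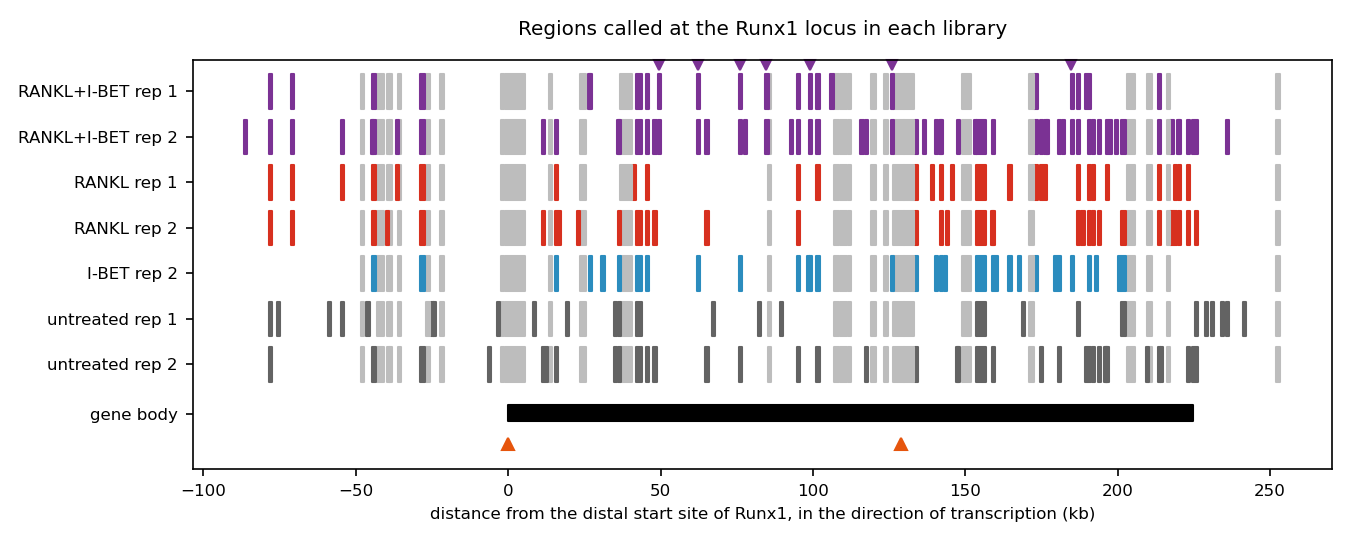
Regions at the Runx1 locus by distance from the distal start site (kb, in the direction of transcription), with 1 row per library; grey blocks are regions called in all 7 libraries, coloured blocks are the other regions in each library that called them, and blocks are drawn at least 0.3% of the locus wide. Orange triangles mark the start sites and the black bar is the gene body. Purple triangles mark the 7 regions called in each RANKL+I-BET library but in no RANKL library. Of these 6 lie between the start sites, beside 46 of all 136 regions of the locus.

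Runx1 had the most regions called whatever the treatment. Of its 136 regions 26 were called in all 7 libraries (19.1%), of the 86 at Runx2 11 (12.8%), of the 75 at Runx3 7 (9.33%) and of the 11 at Cbfb 2 (18.2%), beside 12.5% over all regions. In the gene body, regions called in all 7 numbered 7.57 per 100 kb at Runx1, 3.45 at Runx2, 1.74 at Runx3 and 4.23 at Cbfb, beside a median of 2.39 over 10039 genes of at least 20 kb. Regions called in at least 6 libraries numbered 34 (25.0%) at Runx1, 17 (19.8%) at Runx2, 12 (16.0%) at Runx3 and 3 (27.3%) at Cbfb, beside 17.7% of all regions. Only 13 protein-coding genes, Runx1 included, had as many as 26 regions called in all 7 libraries. Runx1 also has many regions of any kind, and only 67 genes had as many as its 136. Per length, its 7.57 per 100 kb was above that of 85.8% of the 10039 genes of at least 20 kb. Without untreated replicate 1, which alone missed 16 regions, 31 Runx1, 17 Runx2, 11 Runx3 and 3 Cbfb regions were called in all 6 remaining libraries. These were 25.8%, 23.0%, 16.9% and 30.0% of the locus regions called there, beside 19.5% of all regions called there. Regions called in 1 library made up 44.1% at Runx1, 46.5% at Runx2, 46.7% at Runx3 and 27.3% at Cbfb, beside 55.6% over all regions.

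**Figure D3:**
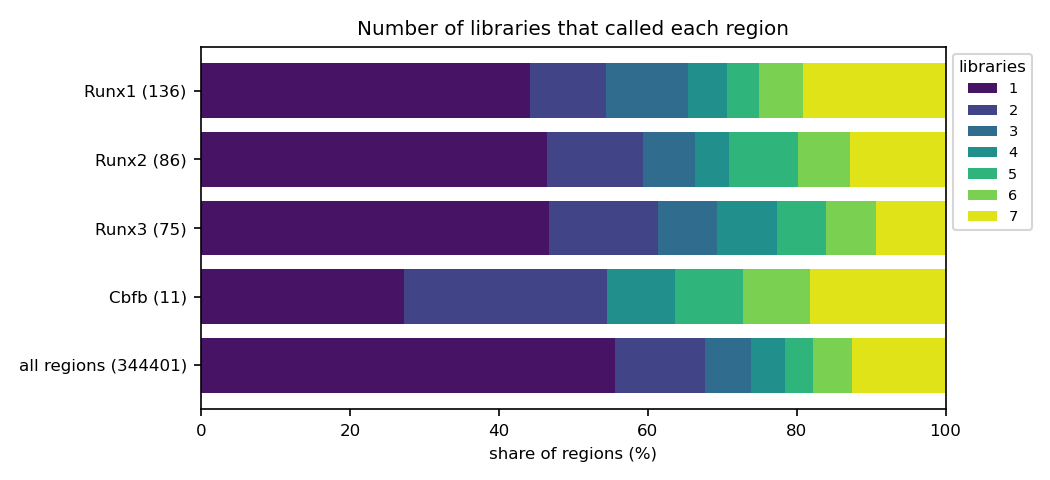
Share of regions (%) called in 1 to 7 libraries, for the 4 loci and for all regions, with the number of regions in brackets. The segment for all 7 libraries runs from 9.33% at Runx3 to 19.1% at Runx1, beside 12.5% over all regions.

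Of the 26 Runx1 regions called in all 7 libraries, 11 lay between the start sites, which are 128745 bp apart, 6 past the proximal start, 8 upstream and 1 downstream of the gene. The strongest by median percentile over the libraries was not a promoter. It lay 75652 bp past the proximal start at chr16:92620281-92623073, with percentiles of 90.6 to 99.3 and a median of 97.9. It was not first in every library. In untreated replicate 1 its 90.6 was below the 94.85 and 96.25 of the distal and proximal promoter regions. Beside the 2 promoter regions, the longest was chr16:92785329-92789499, 38660 bp past the distal start, with 92.1 to 94.85. Upstream, chr16:92866656-92869013, centred 41761 bp before the distal start, reached 87.4 to 97.2.

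At Runx2 all 11 regions called in every library lay inside the gene. The strongest by median percentile was chr17:44776555-44778488, 37106 bp past the distal start, at percentiles 96.0 to 98.0. It also holds the promoter window of Supt3, which is transcribed on the opposite strand from chr17:44776916-44777215, so this region cannot be ascribed to either gene. The longest, chr17:44734145-44736957, 79076 bp past the distal start, had 83.6 to 96.6, and chr17:44709545-44711746 had 82.3 to 90.8. Of the 86 Runx2 regions 7 overlapped Supt3, and 2 of the 7 were called in all 7 libraries. No Runx2 region lay upstream of the gene, since Supt3 extends there.

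At Runx3, 6 of the 7 regions called in every library lay outside the gene, 3 upstream and 3 downstream. The strongest by median percentile was chr4:135069470-135070542, 50639 bp before the distal start, with percentiles of 89.2 to 96.2. The longest, chr4:135128150-135130563, was the only one inside the gene, 8712 bp past the distal start, with 73.5 to 88.25. The 11 Runx3 regions past the proximal start included 0 called in every library. At Cbfb the promoter region chr8:105169967-105172473 and a region 16066 bp into the gene, chr8:105186407-105187073 (percentiles 45.2 to 80.7), were called in all 7.

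**Figure D4:**
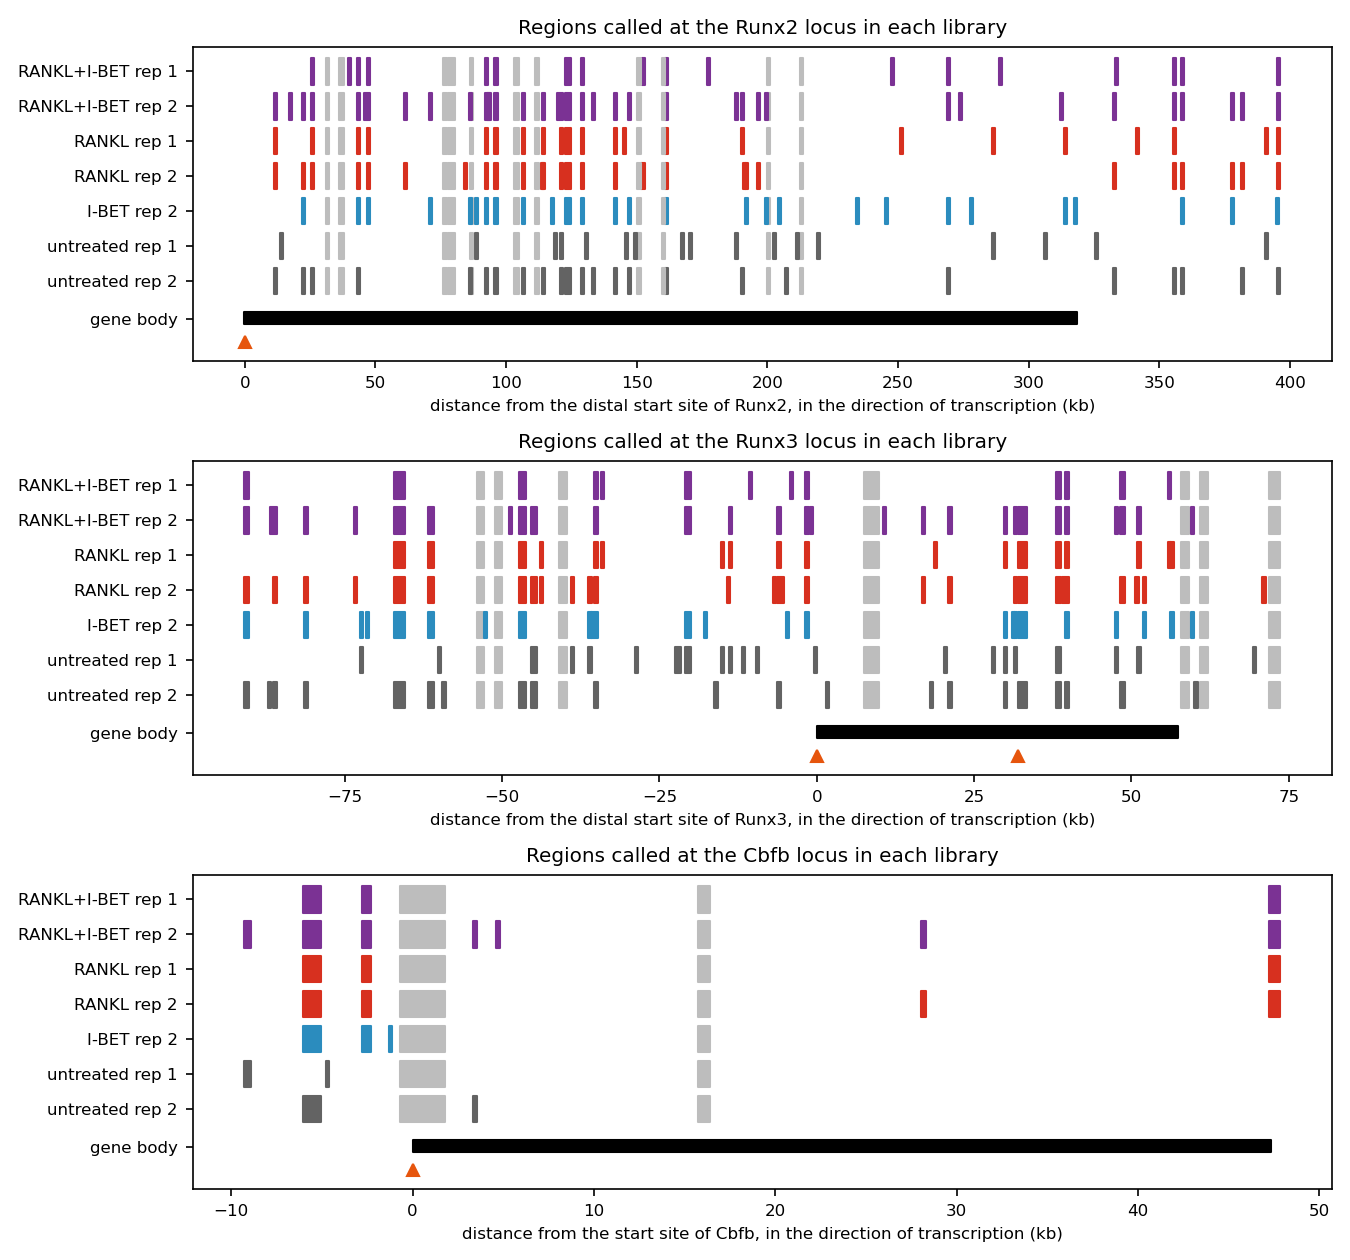
Regions at the Runx2, Runx3 and Cbfb loci by distance from the distal (Cbfb: only) start site in kb, with 1 row per library; grey blocks are regions called in all 7 libraries, coloured blocks the other regions in each library that called them, drawn at least 0.3% of the locus wide. Orange triangles mark start sites and black bars gene bodies; grey blocks lie inside the gene at Runx2 and mostly outside it at Runx3.

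The number of peaks at each locus was set against the length of each library's own list. At Runx1 the libraries had 49.5 and 54.1 peaks per 100000 in RANKL+I-BET, 40.9 and 55.8 in RANKL, 54.5 in I-BET and 49.0 and 64.0 in untreated cells. At Runx2 the values were 28.7 and 28.9, 25.3 and 31.7, 29.3, and 21.9 and 32.4 in the same groups. The groups overlapped at both genes, and for the 3 comparisons the log2 ratios of group means at Runx1 were -0.22 for RANKL over untreated, 0.10 for RANKL+I-BET over RANKL and -0.13 for RANKL+I-BET over untreated. Leaving out 1 library at a time moved them between -0.47 and -0.02, between -0.11 and 0.34, and between -0.31 and 0.08. The sign of the second turned without RANKL replicate 1 (-0.11) and that of the third without untreated replicate 2 (0.08). Without untreated replicate 1 the first was -0.40 and the third -0.31. The Runx2 ratios were 0.07, 0.02 and 0.08 in the same order. Leaving out 1 library at a time moved them between -0.19 and 0.38, between -0.14 and 0.19, and between -0.17 and 0.39.

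At Runx3 there were 18.4 and 21.6 peaks per 100000 in RANKL+I-BET, 18.8 and 29.4 in RANKL, 23.7 in I-BET and 23.4 and 28.2 in untreated cells. Both RANKL+I-BET libraries were below both untreated libraries, with a log2 ratio of -0.37 (-0.49 without untreated replicate 1), and overlapped RANKL. The share of all genes whose groups lie apart in peaks per 100000 was not computed. Without it the separation here, and that at Cbfb below, is a description only. In covered bases per 1000000 the ratio was -0.18, and the 144.7 and 215.5 of RANKL+I-BET overlapped the 182.7 and 226.6 of untreated cells. At Cbfb there were 4.79 and 5.41 in RANKL+I-BET, 3.25 and 4.52 in RANKL, 3.49 in I-BET and 2.93 and 3.41 in untreated cells. These Cbfb values rest on 6 and 9, 5 and 6, 5, and 4 and 4 peaks. RANKL+I-BET lay above RANKL (log2 ratio 0.39) and above untreated cells (0.69, or 0.58 without untreated replicate 1). Measured as covered bases per 1000000 bases covered by the whole list, Cbfb had 61.4 and 49.7 in RANKL+I-BET, 50.2 and 56.4 in RANKL and 53.0 and 47.2 in untreated cells. On that scale the ratios were 0.06 and 0.15, and the libraries overlapped in both comparisons. In peaks per 100000, replicate 2 had the higher value in every group of 2 libraries and at all 4 loci. In covered bases this did not hold at Cbfb, where replicate 1 was higher in RANKL+I-BET and in untreated cells.

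**Figure D5:**
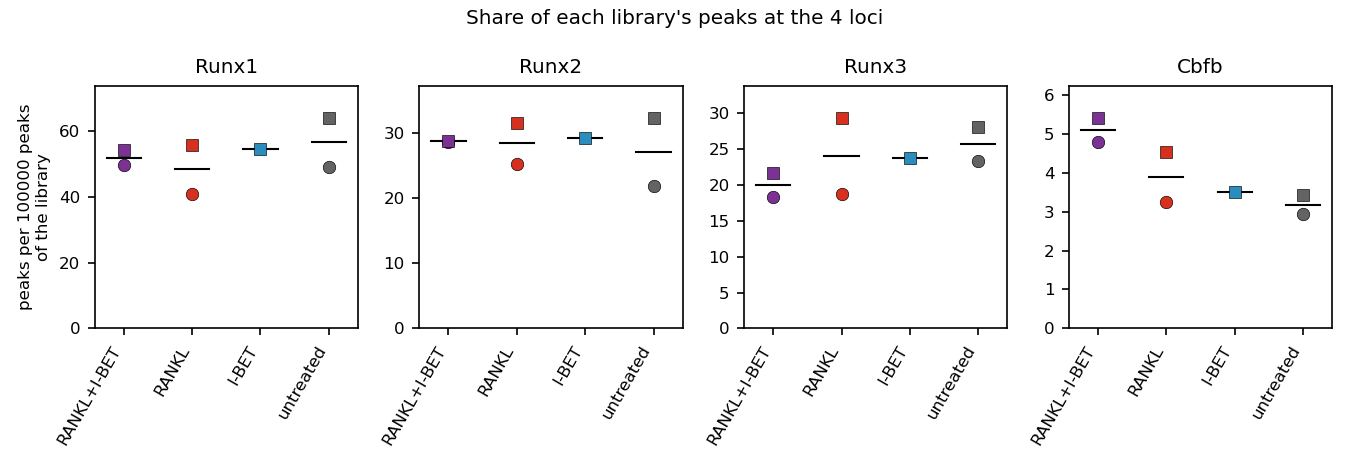
Peaks at each locus per 100000 peaks of the library, by group; circles are replicate 1, squares replicate 2 and lines the group means (1 library for I-BET). The groups overlap at Runx1 and Runx2, while at Cbfb both RANKL+I-BET libraries (4.79 and 5.41) lie above the others. The share of all genes whose groups lie apart was not computed.

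The first comparison asks which regions had a call in each RANKL library but in no untreated library (RANKL-only). All 4 loci had such regions. Runx1 had 4 of 101 regions called in either group, Runx2 1 of 64, Runx3 2 of 62 and Cbfb 2 of 9, beside 3.37% of all regions. The reverse, called in both untreated libraries alone, was found for 1 Runx1 region and 0 regions at the others, beside 0.748%. At Runx1 the share was 3.96%, near that of all regions. The 2 regions of Cbfb are too few to read against it.

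At Cbfb, chr8:105167871-105168377, 2550 bp before the start site, ranked at percentiles 44.7 and 52.5 in the RANKL libraries and was without a peak in both untreated libraries. It was also called in RANKL+I-BET (50.2 and 62.6) and in I-BET (12.45). The region chr8:105217902-105218519, which covers the end of the gene, ranked at 44.7 and 42.1 in RANKL and was also called in RANKL+I-BET (50.2 and 58.7), but not in I-BET. Both Cbfb regions were thus called in the 4 libraries with RANKL and in 0 of the 2 untreated ones. The Cbfb count of 2 was 0 when calls needed a -log10 q of at least 5, and 0 when peaks had to cover 50% of a region, beside 3.68% of all regions under the second rule. How many Cbfb regions remained under these rules was not computed.

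At Runx1, chr16:92896808-92897414, 71037 bp before the distal start, ranked at 56.7 and 42.1 in RANKL and at 34.2 and 61.0 in RANKL+I-BET. The region chr16:92683682-92684339, 13319 bp past the proximal start, ranked at 53.7 and 59.0 in RANKL, and had further calls in replicate 2 of RANKL+I-BET (50.8) and in I-BET (30.7). Near the end of the gene, chr16:92605753-92606392 had 19.1 and 20.8 in RANKL and was called in RANKL+I-BET replicate 2 (5.49). Its neighbour chr16:92607182-92607546, with 2.70 and 11.4, was called in no other library. The untreated-only region, chr16:92790659-92791252 between the start sites, ranked at 22.9 and 20.3 in untreated cells and was called nowhere else.

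At Runx2, chr17:44767283-44767904, 47034 bp past the distal start, had 68.8 and 52.5 in RANKL, 34.2 and 69.3 in RANKL+I-BET and 30.7 in I-BET. At Runx3, chr4:135118757-135119365 lay 1584 bp before the distal start, inside the noncoding gene Gm16225, and had 9.36 and 11.4 in RANKL, 7.43 and 55.5 in RANKL+I-BET and 46.05 in I-BET. The other, chr4:135076638-135077117, 43768 bp before that start, had 29.3 and 29.6 in RANKL and was called in no other library. Of the 9 RANKL-only regions 5 had a call in each RANKL+I-BET library, beside 37.4% of all RANKL-only regions, and 2 in neither, beside 12.3%. In I-BET 4 of the 9 were called, beside 32.1%.

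With untreated replicate 1 left out, RANKL-only regions numbered 5 of 84 at Runx1, 1 of 50 at Runx2, 2 of 49 at Runx3 and 2 of 7 at Cbfb. Over the 4 loci this was 5.26%, beside 5.58% of all regions. Untreated-only regions, which then need 1 library, numbered 14, 5, 6 and 1 of the same regions. Over the 4 loci they made up 13.7%, beside 9.13% of all regions. Over the 4 loci there were 9 RANKL-only and 1 untreated-only regions with all libraries. Omitting RANKL replicate 1 gave 34 and 2, and omitting RANKL replicate 2 gave 24 and 5. Omitting untreated replicate 1 gave 10 and 26, and omitting untreated replicate 2 gave 40 and 47. Each omission loosens the call rule, so these counts can only stay or rise. The same share over all regions was computed only for the omission of untreated replicate 1. With a -log10 q of at least 5 the RANKL-only count was 3, all at Runx2 (1 as reported) and 0 at Runx1, Runx3 and Cbfb, beside 4.42% of all regions, and the untreated-only count was 0, beside 0.127%. The number of locus regions at that -log10 q was not computed, so no share at the loci is given.

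The second comparison asks which regions had a call in each RANKL+I-BET library but in no RANKL library. Runx1 had 7 of 103, Runx2 1 of 65, Runx3 1 of 52 and Cbfb 0 of 9, beside 1.86% of all regions; the Runx1 count was among the reasons for choosing these loci and is given as a description. The reverse was found for 1 Runx1 region, 0 at Runx2, 1 at Runx3 and 0 at Cbfb, beside 0.571%. The genes Btbd9, Dnah8, Fbxw7 and Plxna2 also had 7 regions called in RANKL+I-BET and not in RANKL, and 0 genes had more. Over the 1129 genes with at least 50 regions the median was 1.

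Of the 7 Runx1 regions 6 lay in the interval between the start sites, which holds 46 of all 136 Runx1 regions. A count of 7 is too small to read against that share. The deposited peaks were weak to middling in rank. The nearest to the proximal promoter, chr16:92699808-92700368, lay 2759 bp before its start site and ranked at 53.4 and 35.3 in RANKL+I-BET and 55.3 in I-BET. Next in the direction of the distal promoter, chr16:92726684-92727389 had 34.2 and 33.5 in RANKL+I-BET and 64.9 in I-BET, and chr16:92741354-92741638 had 7.43 and 13.7 in RANKL+I-BET alone. The region chr16:92749871-92750332 had 16.3 and 29.5 in RANKL+I-BET, 68.0 in I-BET and 28.8 in untreated replicate 2.

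The region chr16:92763674-92764094, inside the noncoding gene Gm30281, had 7.43 and 22.2 in RANKL+I-BET and 55.3 in I-BET. The last of this interval, chr16:92776400-92776877, 49436 bp past the distal start, had 46.2 and 31.6 in RANKL+I-BET alone. Past the proximal start, chr16:92641050-92641476 had 16.3 and 1.67 in RANKL+I-BET and 12.45 in I-BET. Of the 7 regions, 5 were also called in the single I-BET library, beside 23.0% of all regions called in RANKL+I-BET and not in RANKL, and 1 was called in an untreated library. The other 6 had no untreated call, beside 58.5%.

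At Runx2, chr17:44545274-44545824, 269078 bp past the distal start, had 16.3 and 52.9 in RANKL+I-BET, 30.7 in I-BET and 48.6 in untreated replicate 2. At Runx3, chr4:135099679-135100684, 20464 bp before the distal start, had 25.8 and 22.2 in RANKL+I-BET, 46.05 in I-BET and 22.9 in untreated replicate 1. The 2 regions of the reverse kind were the RANKL-only regions chr16:92607182-92607546 and chr4:135076638-135077117 described above, called in RANKL and in no other library.

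The Runx1 count moved with the call rule. Against 7 regions as reported, there were 2 at a -log10 q of at least 5, 4 with lists of equal length and 4 when peaks had to cover 50% of a region, beside 1.46%, 1.41% and 1.73% of all regions under these rules. The number of Runx1 regions under these rules was not computed, so the share at Runx1 is not known. Without RANKL+I-BET replicate 1 it was 28 and without RANKL+I-BET replicate 2 it was 12, while leaving out either RANKL library gave 8. RANKL+I-BET replicate 2, with the highest background pileup, also called 15 Runx1 regions that no other library did, the most after untreated replicate 1 with 16. Over the 4 loci the count of 9 became 52 with RANKL+I-BET replicate 1 omitted and 22 with replicate 2 omitted. The reverse count of 2 became 17 with RANKL+I-BET replicate 2 omitted, 22 with RANKL replicate 1 omitted and 16 with RANKL replicate 2 omitted. Each omission loosens the call rule, and the same share over all regions was not computed for these omissions. The part of depth in these counts was not tested.

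The third comparison sets RANKL+I-BET against untreated cells. Regions with a call in each RANKL+I-BET library but in no untreated library numbered 7 of 115 at Runx1, 1 of 70 at Runx2, 1 of 59 at Runx3 and 2 of 10 at Cbfb, beside 3.73% of all regions. The reverse was found once, at the Runx1 region chr16:92790659-92791252, beside 0.458%. Of the 11 regions 5 were the RANKL-only regions at chr16:92896808-92897414, at Runx2, near the Runx3 distal start and at Cbfb, and the other 6 were the Runx1 regions absent from RANKL and from untreated cells. Both comparisons share the untreated libraries. In I-BET 7 of the 11 were called, beside 31.0%.

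Without untreated replicate 1 the RANKL+I-BET count over the 4 loci was 13 of 208 (6.25%), beside 6.5% of all regions. The untreated count was 15 of 208 (7.21%), beside 6.21%. Without untreated replicate 2 they were 37 and 47. Without RANKL+I-BET replicate 1 they were 53 and 1, and without RANKL+I-BET replicate 2 they were 25 and 7. The share over all regions was not computed for omissions other than that of untreated replicate 1. At a -log10 q of at least 5 there were 2, both at Runx1, beside 4.03%, and 0 of the reverse, beside 0.00482%. Here too the number of locus regions under that rule was not computed.

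Genes whose products work with Runx proteins, and known Runx target genes of myeloid cells and bone, were counted in the same way. The target list includes Bglap and Ibsp, which are also among the fibroblast and osteoblast markers above. The 24 partner genes had 801 regions, of which 93 at 20 genes (11.6%) were called in all 7 libraries, beside 12.5% over all regions; the median was 3 per gene beside 1 over all genes. RANKL-only regions numbered 14 at 10 partner genes, 2.43% of the 576 called in either group beside 3.37%. Untreated-only regions numbered 10 at 8 partner genes, 1.74% beside 0.748%, and both medians were 0 per gene beside 0 over all genes. The genes with the most such regions are named as a description. Ets1, a factor that binds DNA jointly with Runx1, had 3 RANKL-only regions, its relative Fli1 had 2 and Smurf1, a ubiquitin ligase that targets Runx2, had 2. Cbfa2t3, a corepressor of the ETO family, had 3 untreated-only regions. These are genes with many regions: 67 at Ets1, 73 at Fli1, 53 at Smurf1 and 77 at Cbfa2t3. Over the 1129 genes with at least 50 regions the median was 2 RANKL-only and 0 untreated-only regions.

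Of partner genes, 7 had a region called in RANKL+I-BET and not in RANKL, with 1 region each, and 3 had 1 of the reverse kind. These were 1.22% and 0.524% of 573 regions, beside 1.86% and 0.571%. Against untreated cells RANKL+I-BET had 15 regions at 10 partner genes, 2.42% of 620 beside 3.73%, with 3 at Smurf1, 3 at Ets1 and 2 at Tle4, a Groucho corepressor that Runx proteins recruit. Tle4 has 58 regions in all, and over the 1129 genes with at least 50 regions the median of this class was 2. The reverse numbered 6 at 6 genes, 0.968% beside 0.458%.

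The 19 target genes had 274 regions, of which 59 at 15 genes (21.5%) were called in all 7 libraries, beside 12.5%. RANKL-only regions numbered 5 at 3 target genes and untreated-only regions 5 at 4, each 2.27% of 220, beside 3.37% and 0.748%. Nfatc1, the factor that drives osteoclast differentiation, had 3 of the RANKL-only regions, and Mmp9, a gelatinase of osteoclasts, had 2 of the untreated-only regions. Nfatc1 has 76 regions in all and Mmp9 has 18. Over the 1129 genes with at least 50 regions the median was 2 RANKL-only regions. RANKL+I-BET had 3 regions absent from RANKL at 3 target genes and 1 of the reverse kind, 1.3% and 0.435% of 230 beside 1.86% and 0.571%. It had 6 absent from untreated cells and 2 of the reverse kind, 2.5% and 0.833% of 240 beside 3.73% and 0.458%. Spi1 is in both lists.

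The limits of the loci were set by distance and by neighbours. At Runx1 the outermost region upstream lay 86458 bp from the gene in 1 library, and the next lay 103334 bp from it, without another gene nearer. Downstream the outermost, at 28001 bp, was called in all 7 libraries, and the next, at 30180 bp, lay nearer to Clic6. At Runx3 upstream the region at 90639 bp belonged to Runx3 and that at 93091 bp to Syf2. Downstream of Runx2 the outermost region lay 76868 bp from the gene. Cbfb regions ended 9090 bp upstream and 222 bp downstream, where Ces4a and D230025D16Rik are nearer.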

How the data were processed

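ATAC-seq peak lists of 7 libraries of RAW264.7 cells were used. The submitters' processing notes name mm10, MACS2 and Bowtie2, and cutadapt, Picard, SAMtools, bedtools and FastQC are also named without a role; versions, settings and read counts are not given in the sources used here. The authors deposited 1 list per library, each line with the peak's position and summit, a score, a fold over local background (a ratio), and its -log10 p-value and -log10 q-value, from peaks called per sample and not pooled. The deposited score was the whole part of 10 times the -log10 p in 100% of lines. These values were used only to rank or filter peaks within 1 list, and the lowest -log10 p was 2.01.

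Peaks of all lists were joined where they overlapped or touched, and 1 bp of overlap with a peak was enough for a library to call a region. Genes, promoters and sequences came from RefSeq tables for GRCm38.p6, of which mm10 is the same assembly. No test was made: 2 libraries against 2 allow 3 splits, and the members and lists were chosen with earlier results of these data known. If replicates are technical, their spread says nothing of cultures. The counting was tested on simulated peak lists with planted call patterns. Regions were named by position when called in both libraries of a group and neither of the other, when at a gene end or promoter, or when among the longest called in every library; list genes were named with at least 2 regions of a class. The strongest region of each locus, by median percentile, was added after its values were seen. The search for a stretch shared by the distal promoters was not planned either. The alternatives tried included a minimum -log10 q of 5, lists cut to 117175 peaks, 50% of a region covered, 50 kb, gene bodies, summits within 250 bp, covered bases and leaving out each library. Python 3.11.15, numpy 2.4.6 and pandas 2.3.3 were used.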

Additional observations from a re-analysis of the deposited data

How the results depend on the processing

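Over the 4 loci, RANKL-only regions against untreated numbered 9 as reported, 3 at a -log10 q of at least 5, 4 inside gene bodies and 15 with summits matched within 250 bp. The share over all regions was 3.37% as reported and 4.42% at that -log10 q. It was not computed for gene bodies or summits. Untreated-only regions against RANKL numbered 1, with 0 at that -log10 q, 2 with 50% of the region covered and 4 by summits. Over all regions the shares were 0.748% as reported, 0.127% at that -log10 q and 0.477% with 50% covered. Regions in RANKL+I-BET and not in RANKL numbered 9, with 3 at that -log10 q, 5 with lists of equal length and 4 with 50% covered. In that order the shares over all regions were 1.86%, 1.46%, 1.41% and 1.73%. The reverse numbered 2, with 1 at that -log10 q, 1 with equal lists, 1 inside gene bodies and 5 by summits. Its shares over all regions were 0.571% as reported, 0.0128% at that -log10 q and 0.668% with equal lists. Regions in RANKL+I-BET and not in untreated cells numbered 11, with 2 at that -log10 q, 7 with equal lists and 7 inside gene bodies. Shares over all regions were 3.73% as reported, 4.03% at that -log10 q and 2.94% with equal lists. The reverse numbered 1, with 0 at that -log10 q, 2 with equal lists and 5 by summits. For it the shares were 0.458% as reported, 0.00482% at that -log10 q and 0.787% with equal lists. Regions called in all 7 libraries numbered 46, with 27 at that -log10 q and 20 with 50% covered. Over all regions their share was 12.5%, with 21.6% at that -log10 q and 5.92% with 50% covered. The number of locus regions under each alternative rule was not computed. The counts at the loci are therefore not shares and cannot be compared with these percentages. Over the whole series the regions numbered 344401 as reported and 126709 at that -log10 q. The cause was not tested. Leaving out 1 library gave 9 to 40 and 1 to 47 regions for RANKL against untreated and its reverse. It gave 9 to 52 and 2 to 22 for RANKL+I-BET against RANKL, and 11 to 53 and 1 to 47 for RANKL+I-BET against untreated. In all remaining libraries it gave 46 to 62. Each omission loosens the call rule, so these ranges do not describe the loci alone. The log2 ratio of peaks per 100000 at Cbfb for RANKL+I-BET over untreated was 0.69 and became 0.15 in covered bases, and the other 11 ratios moved by less than the spread between replicates in covered bases and when 1 library was left out, some of them with a change of sign. No paired analysis was possible because the results come from no test and the labels do not say that a replicate number marks a shared culture or day. Depth is unknown, and a region without a call may be one below the calling threshold of its library.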

Other observations

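By likeness of peaks per 100000 over the 7 libraries (Pearson r of log2 values with 0.5 peaks added, as a description among 3936 genes with a mean of at least 10 peaks), the genes closest to Runx1 were Ern1 (0.995), Pacsin2 (0.980), Aox2 (0.963), Dipk1a (0.962) and Cox4i1 (0.959). Those closest to Runx2 were Tep1 (0.987), Zmym2 (0.985) and Kpna2 (0.980), and those closest to Runx3 were Fgr (0.966), Gtdc1 (0.966) and Col18a1 (0.965). The r between Runx1 and Runx2 was 0.71, between Runx1 and Runx3 0.77 and between Runx2 and Runx3 0.48. All points share the libraries and their list lengths, and Cbfb had too few peaks for this comparison.

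At both Runx1 promoters the 2 libraries whose summit lay away from the start site, 2419 and 2420 bp past the distal and 1330 bp before the proximal one, were the same: RANKL+I-BET replicate 2 and RANKL replicate 2. Both are labelled replicate 2 and differ in I-BET.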
